A study of Sus scrofa with 22 samples.

Results

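Dietary sugar and starch are finished off at the brush border, the microvillus surface of the absorptive cells (enterocytes) of the small intestine. There disaccharidases anchored in the membrane split sucrose, maltose, lactose and trehalose into single sugars. Glucose and galactose enter the cell with sodium through SLC5A1 (SGLT1), fructose enters through SLC2A5 (GLUT5), and SLC2A2 (GLUT2) lets sugars leave across the basal membrane towards the blood. The jejunum, the middle small intestine, is the main site of this work, and in rodents SLC2A5 is known for its response to fructose in the lumen.

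The group described here was a list of 7 genes taken by name, namely the disaccharidases SI, MGAM, LCT and TREH and the carriers SLC5A1, SLC2A2 and SLC2A5. Of the 24358 genes in the count tables, 5 carried one of these names. MGAM was listed only under the identifier ENSSSCG00000034639, which a table of gene names pairs with it, and it was included, giving 6 genes of 24358. No row was matched to LCT, the lactase gene, and it was not analysed here. All 6 passed the filter on low counts, with between 1113 and 269412 counts per library.

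The data were unique exon read counts from the jejunal mucosa of 22 Ossabaw pigs, a small breed prone to obesity that serves as a model for human metabolic disorders. WD_S (7 pigs) ate a Western pattern rich in butter fat, cholesterol, sugar and white flour, labelled atherogenic on the samples, and received atorvastatin, which inhibits cholesterol synthesis. HHD_S (8 pigs) ate a heart healthy pattern of unsaturated oils, whole wheat, oats, fruit, vegetables and fibre with atorvastatin, and HHD (7 pigs) ate the heart healthy pattern without the drug. Both patterns were fed for 6 months in equal energy and supplied 47% of energy as carbohydrate, 38% as fat and 15% as protein, so that they differed in the kind of carbohydrate and not in its share. The daily dose of atorvastatin was 20 mg over the first 3 months and 40 mg over the last 3. Pigs on the heart healthy pattern, with or without the drug, also received fish oil capsules of 1000 mg on 3 occasions per week. Boars and gilts were both used, and which pig was of which sex is not in the labels. A Western group without atorvastatin was not analysed here, and the series text uses the abbreviation of the WD_S titles for the Western pattern without drug, where the sample labels were followed.

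Libraries held 15.3 to 31.6 M counts, and the names of the deposited files place them in library pool 3 or 4. All 22 enterocyte markers matched by name were detected in every library, with the brush border protein VIL1 at 981 to 1900 CPM (counts scaled to a common library size, with TMM factors between libraries). The summed enterocyte markers ran from 43800 to 82100 CPM in WD_S (median 61600), from 27000 to 80700 in HHD_S (median 62200) and from 39100 to 74400 in HHD (median 47600). Regional markers were mixed. Of the duodenal and Brunner gland list, PGC (at most 0.0933 CPM) and MUC6 (at most 0.514 CPM) were near 0, while CYBRD1 ran from 214 to 862 CPM, SLC40A1 from 36.9 to 125 CPM and TMPRSS15 from 5.09 to 54.4 CPM. Of the ileal list, FABP6 had group medians under 1 CPM and reached 26.1 CPM in 1 library of WD_S, GUCA2A ran from 272 to 1170 CPM, and CUBN had medians of 84.9 CPM in WD_S, 97.1 CPM in HHD_S and 22.9 CPM in HHD. In WD_S against HHD 4 of the 5 ileal markers tested were positive (median log2 fold change 0.36), beside 49% of all genes. Of these markers 1 had an unadjusted p under 0.05 by edgeR, beside 3.41% of all genes. The mean centred log2 CPM of the ileal markers was highest in WD_S 1, at 2.06, and next highest in HHD 4, at 1.07. The part of gut region in the results was not tested. Differences were tested with edgeR's quasi-likelihood test across 13626 genes, with the Benjamini-Hochberg adjustment over all of them and a threshold of 0.05 on the adjusted p. In bulk tissue, fewer cells of a type and less RNA per cell cannot be told apart, and this holds for every level below.

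The fructose carrier SLC2A5 had the clearest order of means and medians over the 3 groups, with WD_S above HHD_S and HHD_S above HHD. Its step between HHD_S and HHD lay within the scatter, and the log2 fold change fell from 0.29 to 0.13 without HHD_S 2. SI, which splits sucrose, and SLC5A1 had the same order with wider scatter. MGAM, TREH, SLC5A1 and SLC2A2 showed no difference that stood clear of the scatter between pigs. None of the 6 genes passed the adjusted threshold in any comparison. With edgeR, WD_S against HHD_S called 0 of 13626 genes, a background of 0%, while an unadjusted p under 0.05 was reached by 398 genes (2.92%); DESeq2 called 4 genes and limma 1. HHD_S against HHD likewise called 0% by edgeR, and an unadjusted p under 0.05 was reached by 247 genes (1.81%); DESeq2 called 1 gene and limma 0. WD_S against HHD called 1 gene, the sterol exporter ABCG1 (0.00734%), and an unadjusted p under 0.05 was reached by 465 genes (3.41%). DESeq2 and limma called none of the 6 genes either. Below that threshold, at an unadjusted p under 0.05, stood 1 of the 6 in WD_S against HHD_S (SLC2A5), 0 in HHD_S against HHD and 2 in WD_S against HHD (SLC2A5 and SI). These comparisons share their libraries and do not bear on each other as separate evidence. WD_S and HHD differed in dietary pattern, atorvastatin and fish oil at once, and the parts of these cannot be told apart in that comparison. Dietary pattern and fish oil changed together between WD_S and HHD_S, while HHD_S and HHD differed in atorvastatin.

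**Figure D1:**
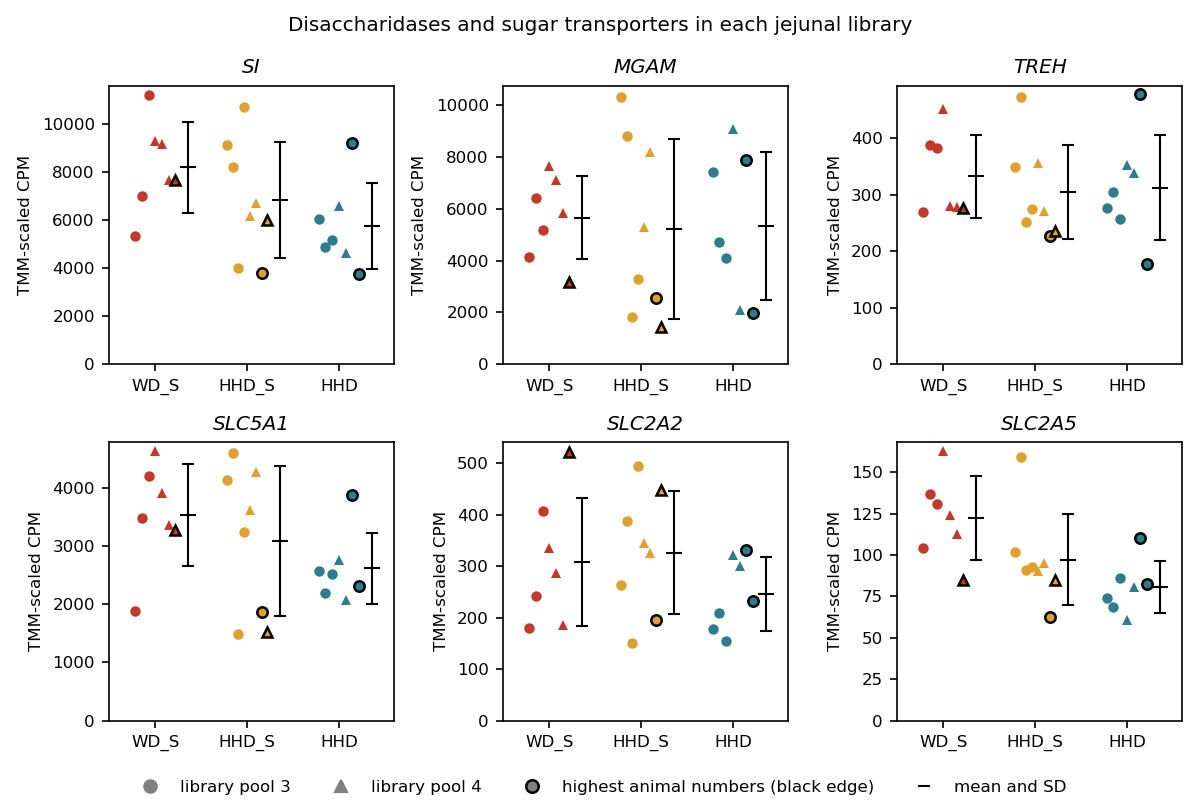
TMM-scaled CPM (vertical axis, from 0) of each gene in every library, with WD_S, HHD_S and HHD along the horizontal axis, circles for library pool 3, triangles for pool 4, black edges for the 5 libraries with the highest animal numbers and bars for the mean and SD. Groups overlap for all 6 genes, and SLC2A5 has 5 of 7 WD_S libraries above the highest HHD library.

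Sucrase-isomaltase is the enzyme that splits sucrose and the branch points and short chains left from starch. SI (ENSSSCG00000011735, chromosome 13, 104296281 to 104379558 in Sscrofa11.1, RefSeq gene span) alone took 0.394% to 0.998% of all counts in a library. Its level had a lowest value of 5350, a median of 7680 and a highest of 11200 CPM in WD_S, against 3800, 6430 and 10700 CPM in HHD_S and 3750, 5180 and 9190 CPM in HHD. All 7 WD_S libraries lay above the HHD median, yet only 2 of them lay above the highest HHD library, so the groups overlapped over most of their range. The mean was 8190 ± 1880 CPM in WD_S (SD, n = 7), 6830 ± 2390 CPM in HHD_S (SD, n = 8), against 5750 ± 1780 CPM in HHD (SD, n = 7). The log2 fold change of WD_S against HHD was 0.53 (SE 0.243, 95% interval 0.02 to 1.03), with an edgeR unadjusted p of 0.0415 and an adjusted p of 0.9997. A two-sided exact permutation test over all 3432 splits of these pigs gave p = 0.0256 for the mean log2 CPM. Each single step was smaller and within the scatter, at 0.28 for WD_S against HHD_S (interval -0.21 to 0.76) and 0.25 for HHD_S against HHD (interval -0.22 to 0.72). In WD_S against HHD, leaving out WD_S 3, the library with the highest level, lowered the log2 fold change to 0.41 with an unadjusted p of 0.133. Within pool 3 the same value was 0.43 and within pool 4 it was 0.60.

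Maltase-glucoamylase, a relative of SI, releases glucose from the ends of starch fragments. MGAM (chromosome 18, 7871529 to 7997137, RefSeq gene span) varied more between pigs than any of the other 5 genes. It ranged from 1430 CPM in HHD_S 8 to 10300 CPM in HHD_S 1, a ratio of 7.23, whereas the ratio of highest to lowest library was between 2.68 and 3.48 for the others. Its lowest, median and highest values were 3170, 5840 and 7670 CPM in WD_S, 1430, 4300 and 10300 CPM in HHD_S and 1970, 4720 and 9100 CPM in HHD. The whole WD_S range thus lay inside that of HHD_S and inside that of HHD. The scatter within groups was 0.87 on the log2 scale (SD), and 98.2% of the genes whose log2 CPM averaged 1 or more had a smaller one. The coefficient of variation was 28.4% in WD_S, 66.5% in HHD_S and 53.5% in HHD, and these spreads were not compared by a test. Group means of 5660 ± 1600 CPM in WD_S (SD, n = 7), 5220 ± 3470 CPM in HHD_S (SD, n = 8), against 5330 ± 2850 CPM in HHD (SD, n = 7), lay close together. The log2 fold changes were 0.10 for WD_S against HHD_S, -0.03 for HHD_S against HHD and 0.07 for WD_S against HHD. These estimates leave room for sizeable differences, since the interval of the first ran from a fold of 0.591 to one of 1.96. The sign of each turned round when some single libraries were left out, so MGAM has no direction here. Reads that match MGAM and its neighbour in the gene family MGAM2 equally are absent from unique counts. MGAM2 stood at 301 ± 95.3 CPM in WD_S (SD, n = 7), 299 ± 56.0 CPM in HHD_S (SD, n = 8) against 274 ± 63.9 CPM in HHD (SD, n = 7), and the log2 fold changes lay between 0.02 and 0.15.

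SI and MGAM did not keep a fixed proportion from pig to pig. The ratio of SI to MGAM CPM, which no scaling between libraries can move, ran from 1.09 to 2.42 in WD_S (median 1.29), from 0.818 to 4.20 in HHD_S (median 1.32) and from 0.725 to 2.20 in HHD (median 1.16). This ratio compares pigs and not the genes with each other, since the counts were not divided by transcript length. HHD_S 8 and HHD_S 4 had the highest ratios, at 4.20 and 3.23. HHD_S 8 combined the lowest MGAM level of all with an SI level of 5990 CPM, close to the median of its group, while HHD_S 4 combined the highest SI level of its group, 10700 CPM, with 3300 CPM of MGAM.

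Trehalase splits trehalose, a sugar of fungi and insects that is scarce in most diets. TREH (ENSSSCG00000028204, chromosome 9, 45949891 to 45965372, RefSeq gene span) averaged 332 ± 73.7 CPM in WD_S (SD, n = 7), 305 ± 83.1 CPM in HHD_S (SD, n = 8), against 312 ± 92.9 CPM in HHD (SD, n = 7). Here the lowest, median and highest values were 269, 279 and 452 CPM in WD_S, 226, 273 and 472 CPM in HHD_S and 178, 305 and 477 CPM in HHD. The medians differed by less than the SD of any group, and the log2 fold changes lay between -0.03 and 0.13 with unadjusted p of at least 0.506 by edgeR. The widest of the 3 intervals, that of WD_S against HHD, ran from -0.32 to 0.51.

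SLC5A1 carries glucose and galactose across the brush border together with sodium. It (ENSSSCG00000010036, chromosome 14, 48566400 to 48704145, RefSeq gene span) had a lowest value of 1880, a median of 3490 and a highest of 4630 CPM in WD_S, against 1490, 3430 and 4600 CPM in HHD_S and 2070, 2520 and 3880 CPM in HHD. HHD_S split into 5 libraries at 3240 CPM or more and 3 libraries, HHD_S 3, 7 and 8, at 1860 CPM or less, while 6 of the 7 HHD libraries lay in a narrow band between 2070 and 2770 CPM. The log2 fold change was 0.41 for WD_S against HHD (SE 0.266, interval -0.14 to 0.97, unadjusted p = 0.133 by edgeR), 0.18 for WD_S against HHD_S and 0.23 for HHD_S against HHD. The exact permutation test of WD_S against HHD gave p = 0.0559 (two-sided). HHD 6, at 3880 CPM, was the one HHD library in the range of the higher HHD_S pigs.

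SLC2A2 is the low-affinity carrier through which glucose, galactose and fructose leave the enterocyte on the blood side. SLC2A2 (ENSSSCG00000020927, chromosome 13, 109592595 to 109614105, RefSeq gene span) was the one gene of the 6 whose mean was not highest in WD_S, with 308 ± 124 CPM in WD_S (SD, n = 7), 326 ± 119 CPM in HHD_S (SD, n = 8), against 247 ± 71.8 CPM in HHD (SD, n = 7). The lowest, median and highest values were 179, 286 and 522 CPM in WD_S, 150, 335 and 495 CPM in HHD_S and 154, 233 and 332 CPM in HHD. Of the 8 HHD_S libraries 4 lay above the highest HHD library, as did 3 of the 7 WD_S libraries. The log2 fold change was 0.38 for HHD_S against HHD (SE 0.247, interval -0.13 to 0.89, unadjusted p = 0.138 by edgeR), -0.15 for WD_S against HHD_S and 0.23 for WD_S against HHD. None of these exceeded the scatter between pigs. Single libraries moved all 3: without HHD_S 4 the value of HHD_S against HHD was 0.22 and that of WD_S against HHD_S -0.01, and without WD_S 3 that of WD_S against HHD_S was -0.31 and that of WD_S against HHD 0.05.

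SLC2A5 is the carrier through which fructose enters the enterocyte from the lumen. SLC2A5 (ENSSSCG00000039651, chromosome 6, 69507829 to 69535794, RefSeq gene span) had a lowest value of 84.7, a median of 124 and a highest of 163 CPM in WD_S, against 62.5, 91.8 and 159 CPM in HHD_S and 60.5, 80.8 and 110 CPM in HHD. Of the 7 WD_S libraries 5 lay above the highest HHD library and 7 of 7 lay above the HHD median, and the ranges overlapped between 84.7 and 110 CPM. HHD_S lay between the other groups, with 7 of 8 libraries above the HHD median and 1, HHD_S 2 at 159 CPM, close to the top of WD_S. The mean was 122 ± 25.2 CPM in WD_S (SD, n = 7), 97.2 ± 27.5 CPM in HHD_S (SD, n = 8), against 80.5 ± 15.9 CPM in HHD (SD, n = 7). SLC2A5 was also the gene of the 6 with the least scatter within groups, at 0.32 on the log2 scale (SD). Among all genes whose log2 CPM averaged 1 or more, 63.4% had a smaller one.

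The difference between WD_S and HHD in SLC2A5 was a log2 fold change of 0.65 (SE 0.171), a fold of 1.57 with a 95% interval of 1.23 to 2.01. Its unadjusted p of 0.000982 by edgeR ranked ninth among the 13626 genes, and its adjusted p was 0.9997. In this comparison 465 of those genes (3.41%) had an unadjusted p under 0.05, so the rank alone does not set SLC2A5 apart. The two-sided exact permutation test gave p = 0.00408 over 3432 splits. WD_S against HHD_S gave 0.36 (SE 0.162, interval 0.03 to 0.70, unadjusted p = 0.0352) and HHD_S against HHD gave 0.29 (SE 0.161, interval -0.05 to 0.62, unadjusted p = 0.0893), both with an edgeR adjusted p above 0.999. None of the 3 passed the adjusted threshold, and of the neighbours in the order HHD_S and HHD did not differ beyond their spread. Over the 3 labels together the F test gave an unadjusted p of 0.00366 (adjusted p = 0.9999), where 290 genes (2.13%) fell under 0.05 unadjusted and 1 gene (0.00734%) passed the adjusted threshold. Within pool 3 the log2 fold change of WD_S against HHD was 0.55 and within pool 4 it was 0.78. In 22 fits that each left out 1 library it stayed between 0.57 and 0.73, with unadjusted p up to 0.00422. WD_S against HHD_S was less steady. Its exact permutation test gave p = 0.0713 (two-sided, 6435 splits), and its unadjusted p was under 0.05 in 14 of 22 fits without 1 library and in 8 of 13 alternative fits, where it reached 0.234. Its value lay between 0.28 without WD_S 4 (unadjusted p = 0.093) and 0.49 without HHD_S 2 (unadjusted p = 0.0027). Without HHD_S 2 the value of HHD_S against HHD was 0.13.

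**Figure D2:**
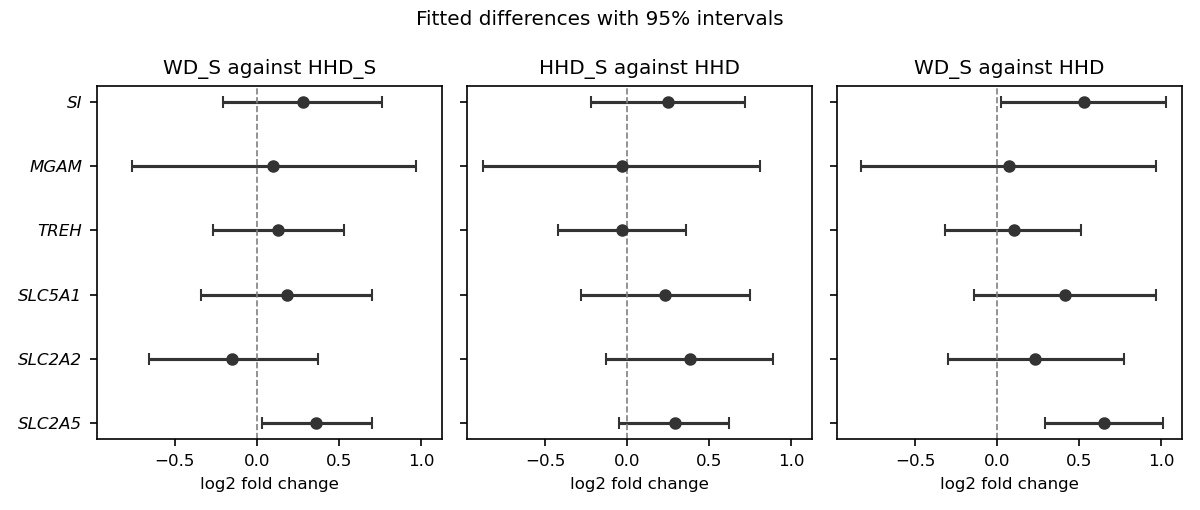
Fitted log2 fold changes (points) with 95% intervals (bars) of the 6 genes in the 3 comparisons, where a positive value means higher in the group named first. The interval of SLC2A5 lies above 0 in WD_S against HHD_S and in WD_S against HHD, that of SI in WD_S against HHD, and those of MGAM are the widest.

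The shape of the 6 genes as a group can be given only as a description. In WD_S against HHD_S 5 of 6 had positive log2 fold changes with a median of 0.16, beside 47.1% positive and a median of -0.01 over all genes. HHD_S against HHD had 4 of 6 positive with a median of 0.24, beside 52.6% and a median of 0.0088 over all genes. In WD_S against HHD 6 of 6 were positive with a median of 0.32, beside 49% and a median of -0.0041 over all genes. Levels of the 6 genes were correlated from pig to pig, so these counts are not 6 separate observations. Groups overlapped for all 6 genes in every comparison, and among all genes tested, 0.0147% had groups that did not overlap in WD_S against HHD_S, 0.0147% in HHD_S against HHD and 0.0661% in WD_S against HHD.

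Correlations were computed over the 22 libraries after the mean of each group was removed. All 15 pairs had a positive Pearson r with TMM scaling, with a median of 0.62. On total counts MGAM with SLC2A2 had -0.09 and SLC2A2 with SLC2A5 -0.04. With TMM scaling 10 pairs had a permutation p under 0.05 after adjustment over the 21 relations computed (9 by Spearman's rho). The share of all gene pairs that would do so was not computed. The strongest pairs joined the sodium-glucose carrier to the disaccharidases. MGAM and SLC5A1 had r = 0.80 and rho = 0.84 (permutation p = 2e-05 for each, adjusted p = 0.00014 for r), with 0.79 without the 2 libraries farthest from the median, 0.77 in pool 3 and 0.88 in pool 4. SI and SLC5A1 had r = 0.77 and rho = 0.82 (permutation p = 2e-05 for each, adjusted p = 0.00014 for r), with 0.79 without the 2 farthest libraries, 0.87 in pool 3 and 0.55 in pool 4. SI and MGAM had r = 0.63 and rho = 0.68 (permutation p = 0.00168 for r, adjusted p = 0.00361, and p = 0.00055 for rho), and 0.72 without the 2 farthest libraries. Other genes often had higher values, counted among named genes without removal of group means. For SI, 6.71% had a higher r with it than MGAM did and 0.762% a higher r than SLC5A1 did. For MGAM, 7.37% had a higher r with it than SI did and 1.69% a higher r than SLC5A1 did.

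Over all libraries SLC2A2 had low correlations with MGAM and SLC2A5, which differed in sign between the pools. Its r was 0.07 with MGAM (rho 0.06, permutation p = 0.761 and 0.790) and 0.15 with SLC2A5 (rho 0.15, permutation p = 0.496 and 0.500). With MGAM it was 0.37 in pool 3 and -0.41 in pool 4, and with SLC2A5 0.55 in pool 3 and -0.43 in pool 4. With SI it had r = 0.62 and rho = 0.60 (permutation p = 0.0026 for r, adjusted p = 0.00496, and p = 0.00413 for rho), but this relation was 0.81 in pool 3 (13 libraries) and -0.08 in pool 4 (9 libraries). WD_S 7 and HHD_S 8 show the contrast. Their SLC2A2 levels of 522 and 447 CPM were among the 3 highest of all, beside MGAM levels of 3170 and 1430 CPM, the lowest of their groups.

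**Figure D3:**
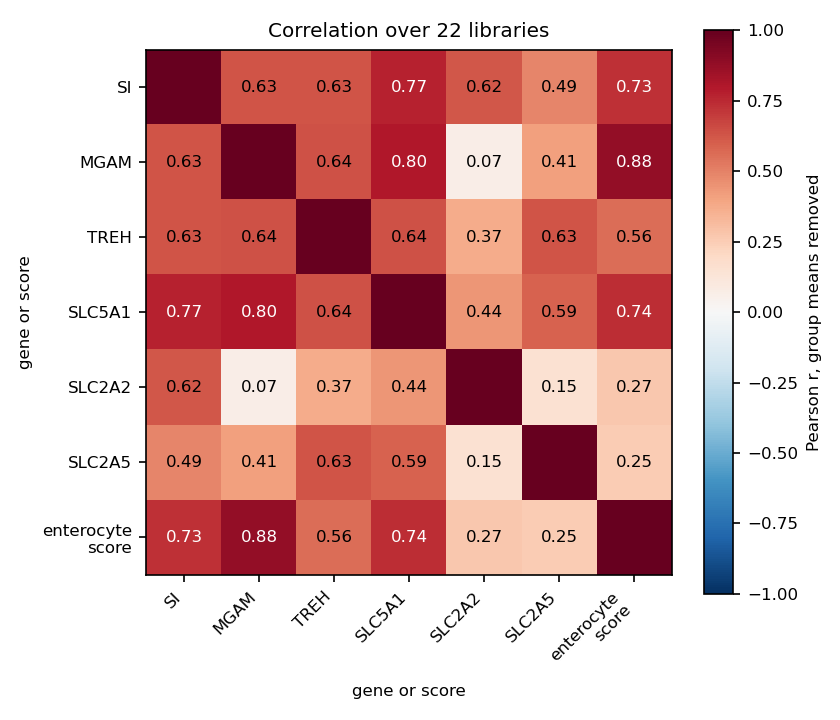
Pearson r of log2 CPM over 22 libraries for each pair of the 6 genes and the enterocyte marker score, after removal of group means, on a colour scale from -1 to 1. MGAM and the enterocyte score have the highest value (0.88), and MGAM and SLC2A2 the lowest (0.07).

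The enterocyte marker score, the mean centred log2 CPM of 22 marker genes that include none of the 6, followed some members closely and others hardly. It had r = 0.88 and rho = 0.87 with MGAM (permutation p = 1e-05, the smallest that these permutations can give, adjusted p = 0.00014), with 0.88 in pool 3, 0.89 in pool 4 and 0.87 without the 2 farthest libraries. SLC5A1 had r = 0.74 and rho = 0.80, SI had r = 0.73 and rho = 0.79, and TREH had r = 0.56 and rho = 0.70, with permutation p between 7e-05 and 0.00706 for r. SLC2A2 (r = 0.27, rho = 0.25, permutation p = 0.224 and 0.262) and SLC2A5 (r = 0.25, rho = 0.30, permutation p = 0.260 and 0.185) did not pass. The lowest scores belonged to HHD_S 3 and HHD 5 at -0.81 and -0.78, and the highest to HHD 4 and HHD_S 1 at 0.61 and 0.57. HHD 4 had the highest score and at the same time the lowest SLC2A5 level of all libraries, 60.5 CPM.

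**Figure D4:**
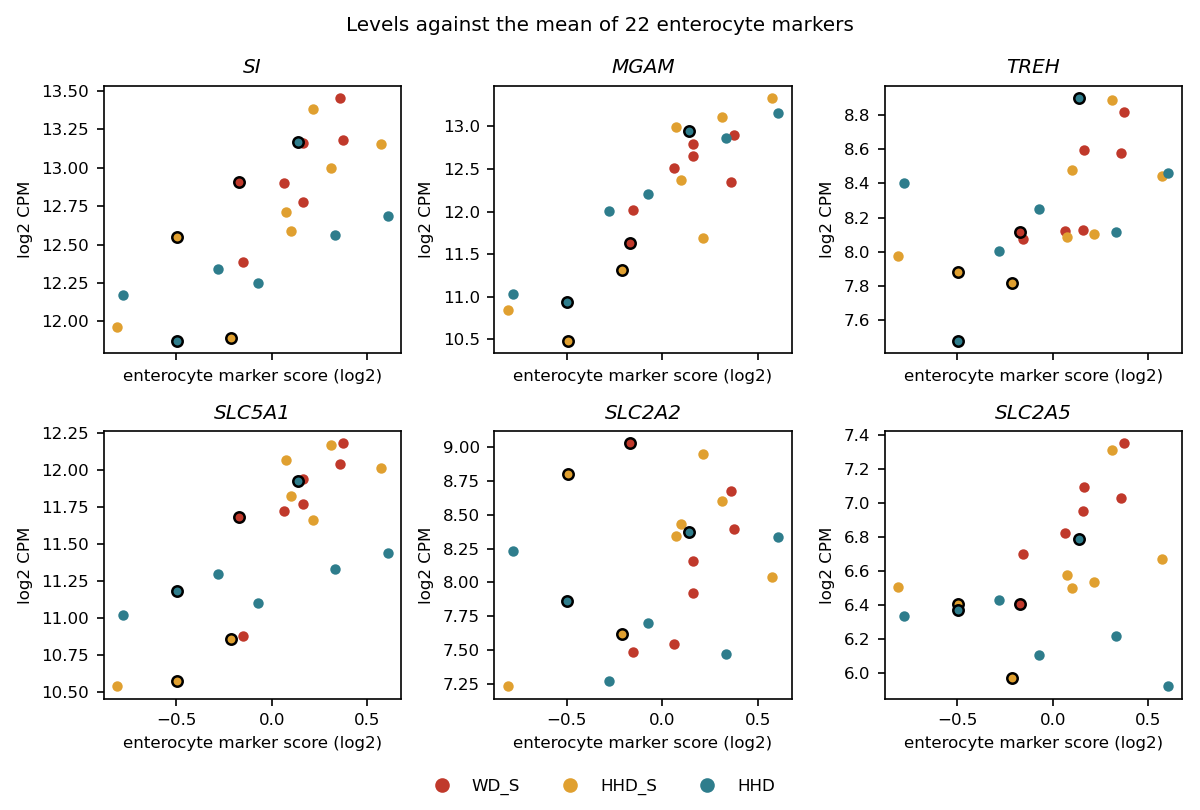
Log2 CPM of each gene (vertical axis) against the enterocyte marker score (horizontal axis, log2 units) in the 22 libraries, coloured by group, with black edges for the 5 libraries with the highest animal numbers. MGAM is higher at higher scores (r = 0.88), and for SLC2A5 the WD_S libraries lie mostly above HHD libraries of like score.

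With the enterocyte score as a term of the edgeR model, the log2 fold change of SLC2A5 in WD_S against HHD was 0.59 (unadjusted p = 0.00321), against 0.65 without that term. That of SI was 0.34 (unadjusted p = 0.0732), against 0.53, and that of SLC5A1 0.16 (unadjusted p = 0.433), against 0.41. The score, which includes the ileal marker CUBN, cannot tell the number of enterocytes from expression per enterocyte. The part of number, expression or gut region in these differences was not tested. In WD_S against HHD 16 of the 22 enterocyte markers were positive, beside 49% of all genes, with a median of 0.20 and 0 called. The summed level of 11 markers of crypt and dividing cells had a median of 1020 CPM in WD_S, 1020 CPM in HHD_S and 1800 CPM in HHD, but most of this sum was OLFM4, with medians of 674 CPM in WD_S, 672 CPM in HHD_S and 1380 CPM in HHD. LGR5 had medians of 6.35, 6.76 and 6.35 CPM in WD_S, HHD_S and HHD, and the median log2 fold change of the list in WD_S against HHD was -0.07. The 8 goblet cell markers summed to 1460 to 4240 CPM in WD_S, 1480 to 4080 CPM in HHD_S and 1850 to 4510 CPM in HHD. In HHD_S against HHD 0 of 8 goblet markers were positive (median -0.36), and in WD_S against HHD 3 of 8 were (median -0.03). In WD_S against HHD 2 were lower at an unadjusted p under 0.05 by edgeR, beside 1.46% of all genes. Smooth muscle markers were positive for 7 of 7 in WD_S against HHD_S, 0 of 7 in HHD_S against HHD and 0 of 7 in WD_S against HHD. Fibroblast markers were positive for 5 of 7, 0 of 7 and 1 of 7 in the same comparisons, and T and natural killer cell markers for 1 of 10, 10 of 10 and 3 of 10. Over all genes 47.1%, 52.6% and 49% were positive in that order of comparisons. The part of these other cells in the results was not tested.

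The 5 libraries with the highest animal numbers, WD_S 7, HHD_S 7, HHD_S 8, HHD 6 and HHD 7, held the lowest MGAM library of each group. Not all 5 were low, since HHD 6 had 7890 CPM. Without these 5 libraries the log2 fold change of SLC2A5 was 0.81 for WD_S against HHD (unadjusted p = 7.12e-05, adjusted p = 0.172) and 0.49 for HHD_S against HHD (unadjusted p = 0.00565), and that of SLC5A1 was 0.55 for HHD_S against HHD (unadjusted p = 0.039). What sets the order of animal numbers is not given in the labels, and its part in the levels was not tested.

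Genes whose log2 CPM followed each member most closely over the 22 libraries, among 11026 named genes whose log2 CPM averaged 1 or more, are given with Pearson r as a measure of likeness only. SI was followed by LAMP2 (0.95), SLC35F5 (0.93) and SLC28A2 (0.93), of which LAMP2 is a lysosomal membrane protein and SLC28A2 a nucleoside carrier. MGAM was followed by TMEM127 (0.96), NPC1L1 (0.95), the intestinal cholesterol carrier, and CDHR2 (0.95), a protocadherin that links microvilli. SLC5A1 was followed by PRR13 (0.94), SLC17A5 (0.93), a lysosomal sialic acid carrier, and EPS8L3 (0.92). TREH was followed by ABHD14B (0.87), RARRES2 (0.84) and TTC38 (0.83). SLC2A2 was followed by PARP2 (0.87), a DNA repair enzyme, CCNB1IP1 (0.84) and OSGEPL1 (0.84), none of which belongs to the brush border. SLC2A5 was followed by ERF (0.87), FUOM (0.83), which interconverts forms of fucose, and HDAC5 (0.82). No other member was among the 3 closest genes of any member. The nearest such relation was SLC5A1 in the list of SI, at rank 85.

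Related sugar genes were followed in 7 lists, and no gene in them passed the adjusted threshold in any comparison. Among the other carriers of the SLC2 and SLC5 families, 12 of the 15 matched were tested. In WD_S against HHD_S 11 of 12 were positive with a median of 0.08, beside 47.1% positive over all genes. In either direction 0 had an unadjusted p under 0.05, beside 1.47% of all genes for the higher and 1.45% for the lower direction. Those with the smallest p there were SLC2A7 (0.39, SE 0.273), a hexose carrier of the same subclass as SLC2A5, SLC2A6 (0.25) and SLC2A8 (0.31). SLC2A7 averaged 179 ± 52.1 CPM (SD, n = 7) in WD_S and 119 ± 37.7 CPM (SD, n = 7) in HHD, with a log2 fold change of 0.65 (SE 0.289, unadjusted p = 0.0346 by edgeR), and 6 of 7 WD_S libraries lay above the highest HHD library. SLC5A4, a relative of SLC5A1, had -0.01 in WD_S against HHD_S and 0.31 in each of the comparisons with HHD.

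SLC5A9, a sodium-coupled carrier of mannose and fructose, was named after its values were seen. It ran from 37.4 to 114 CPM in WD_S (median 51.7), from 21.5 to 85.2 CPM in HHD_S (median 63.4) and from 15.6 to 60.2 CPM in HHD (median 23.8). The groups with atorvastatin thus lay at about the same level. Of the 8 HHD_S libraries 5 lay above the highest HHD library, but only 2 of the 7 WD_S libraries did. The log2 fold change was 1.05 for HHD_S against HHD (SE 0.295, unadjusted p = 0.00173 by edgeR, adjusted p = 0.9993), 1.11 for WD_S against HHD (SE 0.311, unadjusted p = 0.00177) and 0.05 for WD_S against HHD_S (SE 0.291). In WD_S against HHD it and SLC2A7 were the 2 genes of this list with an unadjusted p under 0.05, both higher, beside 1.95% of all genes in the higher and 1.46% in the lower direction. It was the 1 gene of this list, and of all 7, with an unadjusted p under 0.05 in HHD_S against HHD, where 1.07% of all genes had one in the higher direction.

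Genes of fructose breakdown and glucose release, the steps that follow entry, were all 18 positive in WD_S against HHD_S, with a median of 0.14. Over all genes 47.1% were positive there. The values of KHK and SORD rounded to 0. Correlations within the list were not computed, so the 18 need not be separate observations. Beside 1.47% of all genes, 3 of 18 had an unadjusted p under 0.05 by edgeR in the higher direction. These were G6PC (1.43, SE 0.387), which frees glucose from its phosphate, FBP1 (0.60, SE 0.228), an enzyme of glucose synthesis, and TKFC (0.36, SE 0.138), the triokinase of fructose breakdown. KHK, the fructokinase that acts first on fructose, averaged 363 ± 51.0 CPM (SD, n = 7) in WD_S and 359 ± 49.4 CPM (SD, n = 8) in HHD_S, with a log2 fold change that rounded to 0 (SE 0.113). G6PC averaged 96.0 ± 30.9 CPM (SD, n = 7) in WD_S and 35.5 ± 20.5 CPM (SD, n = 8) in HHD_S, with an unadjusted p of 0.00133 by edgeR (adjusted p = 0.9995). In HHD_S against HHD the list was even, with 9 positive and 9 negative, beside 52.6% positive over all genes. In WD_S against HHD 16 of 18 were positive (median 0.21), beside 49% over all genes. There 0 had an unadjusted p under 0.05 by edgeR, beside 3.41% of all genes.

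Among 9 sugar-responsive regulators and targets, 8 were positive in WD_S against HHD_S (median 0.18), beside 47.1% of all genes. In the higher direction 1 of the 9 had an unadjusted p under 0.05 by edgeR, beside 1.47% of all genes. MLXIPL (ChREBP), a transcription factor that responds to sugar phosphates and acts on SLC2A5 in mice, averaged 90.3 ± 40.3 CPM (SD, n = 7) in WD_S and 60.9 ± 17.9 CPM (SD, n = 8) in HHD_S, with a log2 fold change of 0.57 (SE 0.230, unadjusted p = 0.021 by edgeR). Of the 7 WD_S libraries 2, WD_S 1 at 170 CPM and WD_S 2 at 117 CPM, lay above the highest HHD_S library. The medians were 76.9 CPM in WD_S and 60.2 CPM in HHD_S. SLC2A5 stood at 104 CPM in WD_S 1 and 137 CPM in WD_S 2. WD_S 4 had the lowest MLXIPL of WD_S (57.9 CPM) and the highest SLC2A5 of all libraries (163 CPM). The relation of MLXIPL to SLC2A5 was not tested. MLX, the partner of MLXIPL, had 0.18 (unadjusted p = 0.0835 by edgeR), and TXNIP, a target of the pair, 0.31 (unadjusted p = 0.148). A list of 15 transcription factors drawn up around the sucrase and lactase genes also held the bile acid receptor NR1H4. In WD_S against HHD_S 11 of the 15 were positive (median 0.09), beside 47.1% of all genes. CDX2 and FOXA3 were higher at an unadjusted p under 0.05 by edgeR, as were 1.47% of all genes. CDX2, an intestinal homeobox factor that activates SI, averaged 272 ± 70.2 CPM (SD, n = 7) in WD_S, 219 ± 22.7 CPM (SD, n = 8) in HHD_S and 204 ± 29.7 CPM (SD, n = 7) in HHD. The fitted log2 difference of WD_S was 0.33 (SE 0.132, unadjusted p = 0.0217 by edgeR) against HHD_S and 0.46 (SE 0.140, unadjusted p = 0.00342) against HHD. Of the 7 WD_S libraries 5 lay above the highest library of each. WD_S 1 and WD_S 2 were again the highest, at 360 and 374 CPM, with the other WD_S libraries at 186 to 261 CPM. The medians were 258 CPM in WD_S, 229 CPM in HHD_S and 213 CPM in HHD. Within WD_S, SI was lowest in WD_S 1 and WD_S 2, at 5350 and 7010 CPM. SI was highest in WD_S 3 (11200 CPM), the WD_S library with the lowest CDX2 (186 CPM). WD_S 1 also had the highest mean of the ileal markers (2.06). The relation of CDX2 to SI was not tested. HNF4A and GATA4, further activators of SI, had log2 fold changes of 0.06 and 0.10 in WD_S against HHD_S, each within the scatter. NR1H4 (FXR), the bile acid receptor, had -0.62 in WD_S against HHD (unadjusted p = 0.0499 by edgeR). It was, with CDX2, 1 of 2 genes of this list under 0.05 there, beside 3.41% of all genes. In WD_S against HHD_S FOXA3 had 0.49 (SE 0.227) and PDX1 0.64 (SE 0.398), at group means under 10 CPM and under 1 CPM.

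In the remaining lists no gene of WD_S against HHD_S had an unadjusted p under 0.05 by edgeR, beside 2.92% of all genes. Over all genes 47.1% were positive in that comparison. The 6 other glycosidases tested had 5 positive (median 0.07), led by p by the lysosomal enzymes GAA (0.15) and GLB1 (0.16). Of the 8 genes of the sodium gradient and carrier scaffolds 5 were positive (median 0.06), led by SLC9A3R1 (0.17), FXYD3 (0.16) and the sodium pump subunit ATP1B1 (0.09). Of the 7 genes of luminal sugar sensing and incretins 6 were positive (median 0.20), led by the taste channel TRPM5 (0.30), the incretin GIP (0.22) and PYY (0.22). The sweet taste receptor subunit TAS1R2 and its G protein GNAT3 did not pass the filter on low counts.

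**Figure D5:**
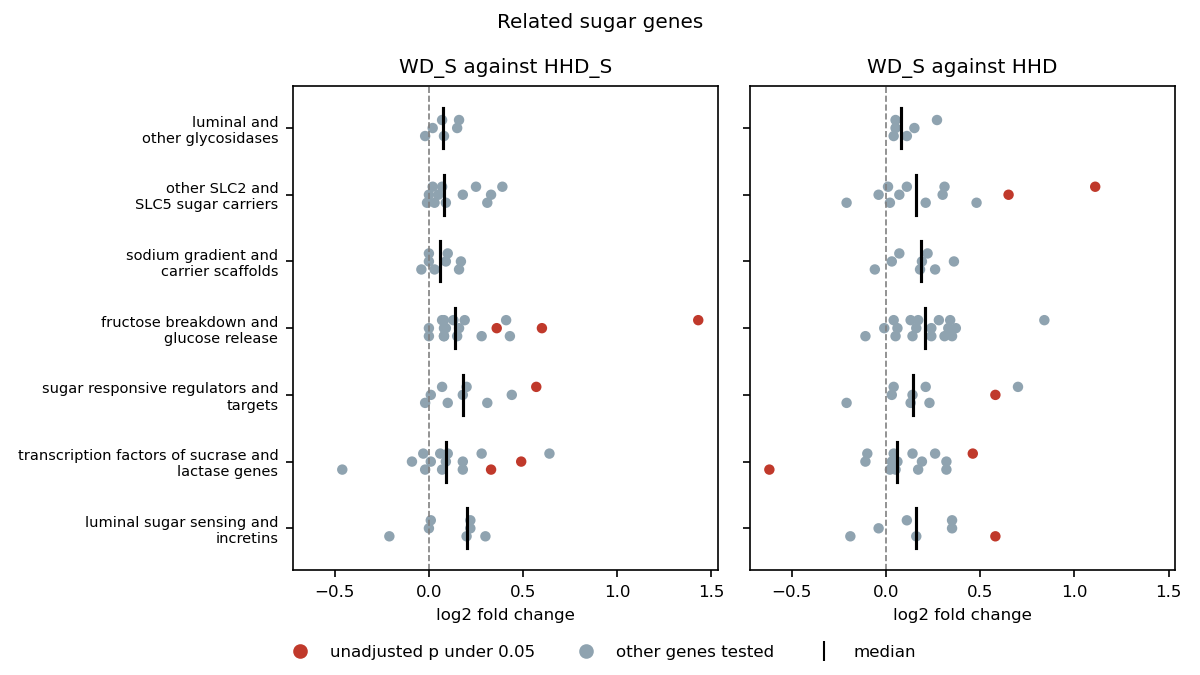
Log2 fold changes (horizontal axis) of the genes tested in 7 lists of related sugar genes, for WD_S against HHD_S and WD_S against HHD, with red points at an unadjusted p under 0.05 and black bars at the median of each list. G6PC is farthest to the right in WD_S against HHD_S (1.43) and SLC5A9 in WD_S against HHD (1.11).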

How the data were processed

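Jejunal mucosa RNA of 22 pigs was sequenced as single reads of 150 bases and processed in a CLC workbench against annotated Sscrofa11.1, per the labels' protocols. The authors deposited, per the file headers, whole-number counts of uniquely placed exon reads for each gene. Neither the version of the workbench nor its settings for mapping appear in the sources used here. A read with more than 1 equal match is left out of such counts, which lowers genes with near copies. Strand use is not stated.

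Groups came from the diet label of each sample, and each library has its own animal number. The members and the lists of related genes were chosen with earlier results of these data known. Gene names came from the files for 17332 genes and from a table of gene names for 1050. Positions are RefSeq gene spans. Transcript lengths were not used here, so levels are not compared between genes. All 231 pairs of libraries differed beyond sampling noise (smallest reduced chi-square 25.2).

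Counts were filtered with filterByExpr (minimum count 10), scaled by TMM and fitted in edgeR 4.0.16 (R 4.3.3) with robust quasi-likelihood estimation, all 3 groups and library pool as an additive term, with 18 residual degrees of freedom. Log2 CPM used a prior count of 2. Permutation p of correlations are two-sided and used 100000 resamples. Alternatives covered scaling, filters, DESeq2 1.42.0, limma 3.58.1, pools, an enterocyte score, the groups fitted and single libraries. On simulated counts for WD_S against HHD_S over 13549 genes, the share of altered genes that was called came to 29.9% at a 1.5-fold change, 85.1% at 2-fold and 95.5% at 3-fold. The altered genes numbered 67, 67 and 66 in that order and were all raised in WD_S. Noise was drawn separately for each gene, with no pool effect. A threshold adjusted over all genes is easier to pass when many are altered, so these shares need not hold for the real counts.

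Named genes were the members, up to 3 genes per list with the smallest p in WD_S against HHD_S, the 3 genes most like each member, and genes past the adjusted threshold. SLC2A7 and CDX2 against HHD, MGAM2, SLC5A4, SLC5A9, NR1H4, KHK, HNF4A, GATA4, TAS1R2 and GNAT3 were named after their values were seen. Some genes that this rule names are not reported here.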

Additional observations from a re-analysis of the deposited data

Results flagged for a closer look

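Among 18 sets of values (6 genes in 3 groups), 2 single libraries stood far from the rest of their group by Dixon's criterion, which flags about 1 group in 20 by chance. SLC2A5 in HHD_S 2 was at 159 CPM, with the next HHD_S library at 102 CPM, a gap of 0.591 of the range of the group. SLC5A1 in HHD 6 was at 3880 CPM, with the next HHD library at 2770 CPM, a gap of 0.613 of the range.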

How the results depend on the processing

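No member passed the adjusted threshold in any of the alternative fits. In WD_S against HHD, SLC2A5 had an unadjusted p under 0.05 in all 13 alternative fits and in all 22 fits without 1 library. In WD_S against HHD_S it did so in 8 of 13 alternative fits and 14 of 22 fits without 1 library. The count of genes called in WD_S against HHD_S was 0, against 2 without the pool term, 2 with the 5 late numbered libraries left out, 4 with DESeq2, 1 with limma and 0 to 2 without 1 library. In HHD_S against HHD it was 0, against 1 with DESeq2. In WD_S against HHD it was 1, against 0 in pool 3 alone, 0 in pool 4 alone, 0 with total counts, 2 with DESeq2 and 0 to 1 without 1 library. Over the 3 labels it was 1, against 0 in either pool alone, 0 with total counts, 3 with DESeq2 and 0 to 1 without 1 library.

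Log2 fold changes near 0 turned sign, and the cause was not tested. For HHD_S against HHD that of MGAM (-0.03) was 0.03 in pool 3, 0.20 without the late numbered libraries, 0.39 with limma and -0.29 to 0.20 without 1 library, and that of TREH (-0.03) was 0.06, 0.10, 0.14 and -0.17 to 0.09. For WD_S against HHD_S that of MGAM (0.10) was -0.02 in pool 3, -0.09 without the late numbered libraries, -0.04 with limma and -0.08 to 0.32 without 1 library, and that of SLC5A1 (0.18) was -0.02 without the late numbered libraries and -0.06 with limma. For WD_S against HHD that of MGAM (0.07) was -0.15 with the enterocyte score and -0.12 to 0.36 without 1 library, and that of TREH (0.10) was -0.10 in pool 4 and -0.02 with the enterocyte score. By exact permutation SLC2A5 in WD_S against HHD_S had p = 0.0713. On total counts the correlation of MGAM with SLC2A2 was -0.09 and that of SLC2A2 with SLC2A5 -0.04, and the pairs SI with SLC2A5 (0.28) and SLC5A1 with SLC2A5 (0.42) no longer passed. No paired analysis was possible because the labels number animals, each with 1 library, and not replicates. With 15.3 M counts or more per library, counting error is small beside the scatter between pigs for all 6 genes.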
